A study of Rattus norvegicus with 4 samples.

Results

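The 10 genes described here belong to the Nrf2 pathway and the thiol antioxidant system that it feeds. They were chosen by name for their place in the pathway, at a time when earlier results of these data were known, and all 10 were found among the 14506 genes that the arrays measured. Liver RNA came from male rats of the WNIN/Ob strain, aged 4 months, untreated and fed a stock diet, of an obese and a lean phenotype. RNA of 4 obese animals formed the obese pool and RNA of 4 lean animals the lean pool, and each pool was hybridised to 2 Affymetrix Rat Gene ST arrays, called original and technical replicate in the labels. WNIN/Ob is a rat strain kept in Hyderabad in which both phenotypes occur; the labels give no genotype for either of them. The study compared baseline expression between the phenotypes, and because each is 1 pool, no value below has a replicate check across animals and no p-values are given. Both pools carried the transcripts of hepatocytes, and the lean pool also carried abundant transcripts of skeletal muscle, whose values follow those of the 10 genes.

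Nrf2, the protein of Nfe2l2, is a transcription factor that is made continuously and destroyed continuously. Keap1 holds it for ubiquitination until electrophiles or oxidants modify cysteines of Keap1, after which Nrf2 accumulates, pairs with small Maf proteins and binds antioxidant response elements. Its targets in liver make and recycle glutathione and thioredoxin, the thiols that supply electrons to peroxidases, and detoxify quinones. Because Nrf2 is controlled mainly at the protein level, its own transcript is not a measure of its activity.

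Nqo1 stood apart from the other 9 genes: its transcript was 2.00-fold higher in the obese pool. Gclc, the catalytic subunit of glutathione synthesis, was next at 1.45-fold and fell short of the size rule used here, and Gclm, its modifier subunit, was at the same level in both pools to within the spread of the arrays. Between these ends lay small excesses in the obese pool for Nfe2l2, Gsr, Gpx1 and Txnrd1, and smaller ones for Keap1, Srxn1 and Prdx1. The size rule asked for a factor of 1.5 between the pool means, a distance of at least 0.25 between the nearest arrays of the pools on the log2 scale, and a level in the higher pool at or above the median of all genes, 5.48 (log2 intensity). It called 1 of the 10 genes higher and 0 lower in the obese pool. Over all genes the rule called 2.19% higher and 2.43% lower, which are 317 and 352 genes, and cyclic loess between the arrays changed those counts to 227 and 400.

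**Figure D1:**
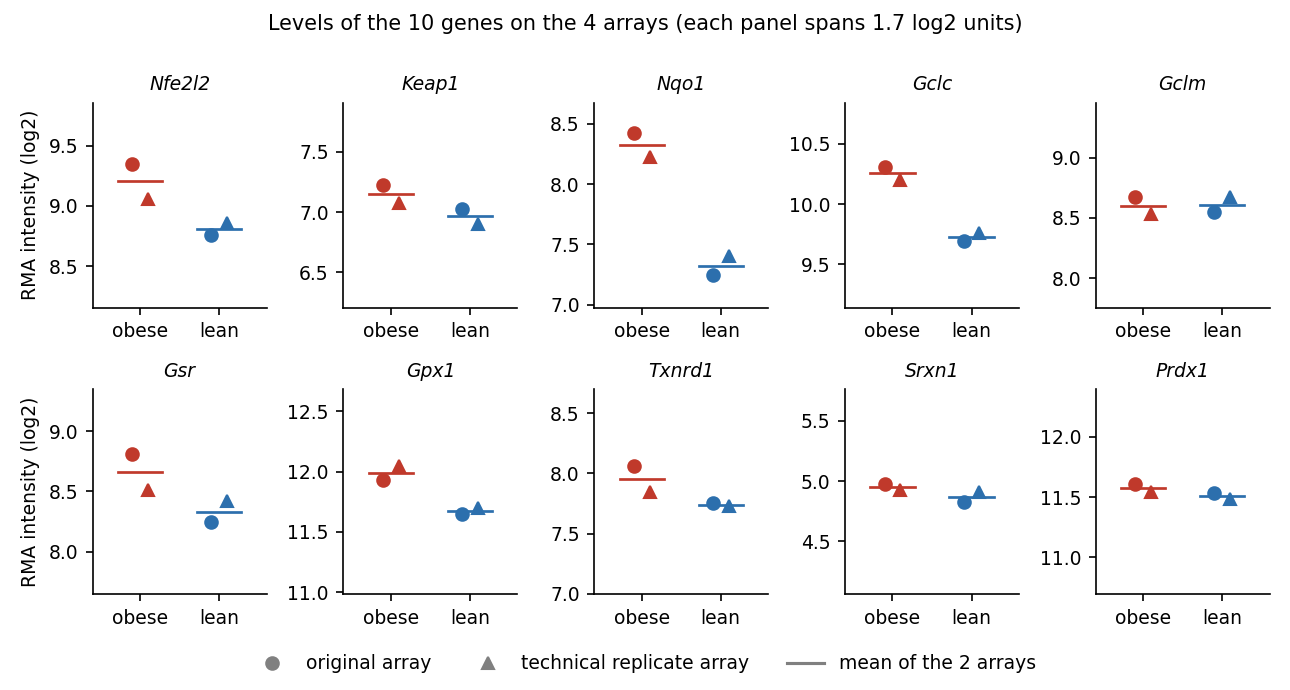
Log2 RMA intensity of each gene on the 2 arrays of the obese pool (red) and the 2 of the lean pool (blue), with a line at each pool's mean and the same axis span in every panel. The pools were farthest apart for Nqo1, whose obese arrays lay at 8.43 and 8.22 and lean arrays at 7.25 and 7.40, and they overlapped for Gclm alone.

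Both regulators were slightly higher in the obese pool. Nfe2l2 measured 9.35 and 9.06 in the obese pool, against 8.76 and 8.86 in the lean pool (log2 intensity, original array before technical replicate array, as in every list of 4 values below). Both obese arrays lay above both lean arrays, but the obese arrays were themselves 0.29 apart. The difference of the means was 0.40 on the log2 scale, a 1.32-fold excess in the obese pool, with a range of 1.15-fold to 1.51-fold over the 4 pairs of an obese and a lean array. Its ends were the excess on the original arrays alone, 1.51-fold, and that on the technical replicate arrays alone, 1.15-fold.

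Keap1, the adaptor that brings Nrf2 to the Cul3 ubiquitin ligase, measured 7.23 and 7.07 in the obese pool, against 7.03 and 6.90 in the lean pool. The lower obese array exceeded the higher lean array by 0.04 only, and the excess was 1.14-fold (1.03 to 1.25 over the array pairs). Taken within each array, the distance between Nfe2l2 and Keap1 was larger by 0.21 in the obese pool, with array pairs from 0.03 to 0.40.

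Nqo1 encodes the cytosolic quinone reductase that takes both electrons to a quinone in one step and is among the best-known Nrf2 targets. It measured 8.43 and 8.22 in the obese pool, against 7.25 and 7.40 in the lean pool. The nearest arrays of the pools were 0.82 apart, several times the distance between arrays of either pool, which was 0.20 for the obese and 0.15 for the lean arrays. Its 2.00-fold excess ranged from 1.77-fold to 2.27-fold over the array pairs. Of all 14506 genes, 93 had a larger positive difference. Measured within each array, Nqo1 gained 0.61 on Nfe2l2 in the obese pool, with array pairs from 0.54 to 0.67.

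Glutamate-cysteine ligase catalyses the first and rate-limiting step of glutathione synthesis. It joins a catalytic subunit, from Gclc, to a modifier subunit, from Gclm, which raises the affinity for glutamate and relieves inhibition by glutathione. Gclc measured 10.31 and 10.20 in the obese pool, against 9.69 and 9.76 in the lean pool. The pools were clearly apart, with 0.44 between the nearest arrays, and the fold of 1.45 (1.36 to 1.54) was the closest below the factor of 1.5. Without the obese technical replicate array the difference was 0.59 and Gclc passed the rule. With Gclc the count of called genes was then 2, and on the original arrays alone it was 3, since Nfe2l2 passed there at 0.59. Calls rose over all 14506 genes too: 553 were higher without that array and 616 on the original arrays alone, against 317 on all arrays.

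Gclm measured 8.67 and 8.53 in the obese pool, against 8.55 and 8.67 in the lean pool. The arrays of the pools interleaved, and the fold was 0.996 (0.908 to 1.09). Its difference of -0.01 was 0.13 on the original arrays and -0.14 on the technical replicate arrays, and it was 0.02 with array medians subtracted and -0.09 under cyclic loess, so it had no settled sign. The subunits of one enzyme thus differed in what was seen. Within each array Gclc gained 0.54 on Gclm in the obese pool, with array pairs from 0.49 to 0.58, and a shift that a whole array shares cancels in this comparison.

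**Figure D2:**
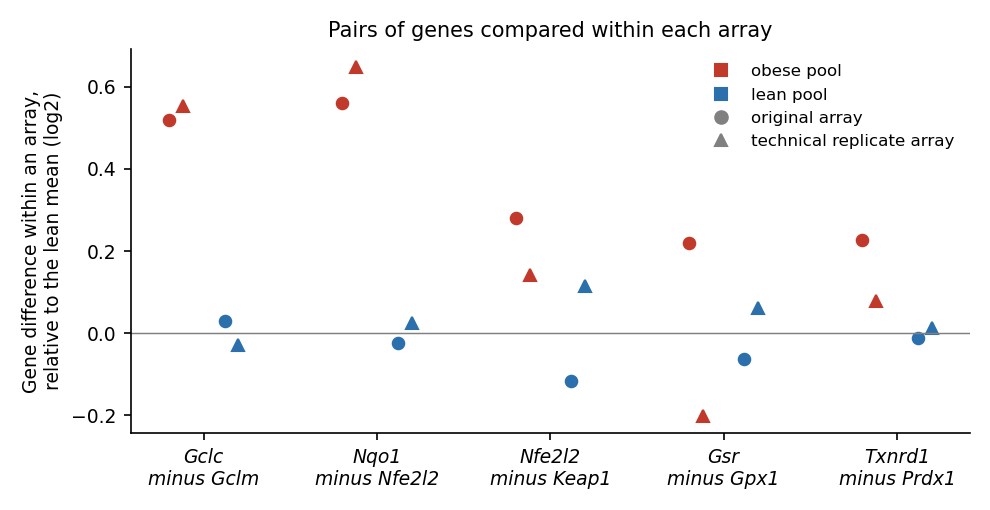
Distance between the log2 intensities of 2 genes on the same array, set to 0 at the mean of the lean arrays, for 5 pairs of genes. The obese arrays (red) lay above the lean arrays (blue) by 0.54 on average for Gclc minus Gclm and by 0.61 for Nqo1 minus Nfe2l2, while the pools overlapped for Gsr minus Gpx1.

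Gsr and Gpx1 form the cycle that spends and restores glutathione. Glutathione reductase, from Gsr, uses NADPH to return oxidised glutathione to its thiol form. It measured 8.81 and 8.51 in the obese pool, against 8.24 and 8.42 in the lean pool. The lower obese array was 0.09 above the higher lean array, and the 1.26-fold excess ranged from 1.07-fold to 1.48-fold. This gene had the largest distance between the obese arrays of the 10 genes, at 0.30, and its excess was 1.48-fold on the original arrays and 1.07-fold on the technical replicate arrays.

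Gpx1, the abundant cytosolic selenoenzyme that reduces hydrogen peroxide with glutathione, measured 11.93 and 12.05 in the obese pool, against 11.65 and 11.70 in the lean pool. The pools were 0.24 apart at their nearest arrays, and the 1.25-fold excess had a narrow range of 1.18-fold to 1.32-fold. Gpx1 was also the only gene of the 10 that read higher on the technical replicate array than on the original array of the obese pool, and its excess did not shrink on the technical replicate arrays, where it was 1.28-fold. Within arrays the distance between Gsr and Gpx1 differed by 0.01 between the pools, with array pairs on both sides of 0, from -0.26 to 0.28.

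In the thioredoxin arm Txnrd1 had a small excess in the obese pool and Prdx1 was nearly level. Txnrd1, the cytosolic selenoenzyme that reduces thioredoxin with NADPH, measured 8.06 and 7.85 in the obese pool, against 7.75 and 7.73 in the lean pool. Both obese arrays were above both lean arrays, by 0.10 at the nearest, and the excess was 1.16-fold (1.07 to 1.26). Prdx1, a peroxiredoxin that thioredoxin reduces, measured 11.61 and 11.54 in the obese pool, against 11.54 and 11.49 in the lean pool. The nearest arrays were 0.01 apart and the fold was 1.04 (1.00 to 1.09), a difference that turned to -0.01 under cyclic loess. A second probe set for Prdx1 gave 0.06 as well.

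Srxn1, sulfiredoxin, rescues overoxidised peroxiredoxins and is a classical Nrf2 target. It measured 4.98 and 4.93 in the obese pool, against 4.82 and 4.91 in the lean pool. Both pools lay below the median of all genes, which is a level filter and no measure of background. Without detection calls the transcript is not shown to be above background here. Its fold of 1.06 (1.01 to 1.11) therefore has no firm size.

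**Figure D3:**
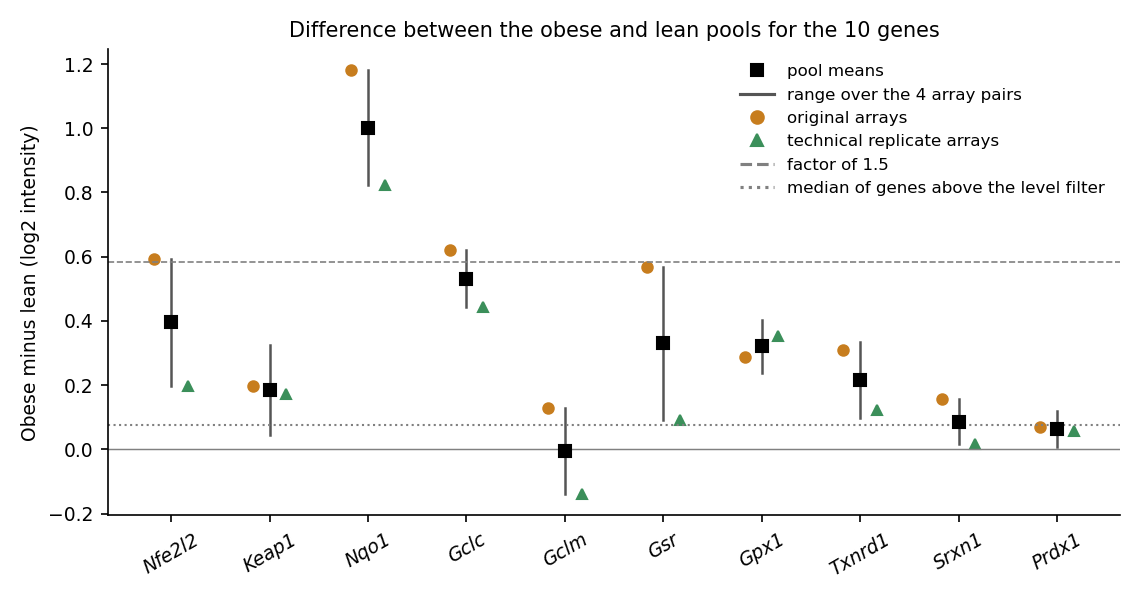
Obese minus lean difference in log2 intensity for the 10 genes, from the pool means (squares), with the range over the 4 array pairs (lines) and the values of the original arrays alone (circles) and the technical replicate arrays alone (triangles). Nqo1 alone had its whole range above a factor of 1.5, and for Nfe2l2 and Gsr the original arrays gave 0.59 and 0.57 where the technical replicate arrays gave 0.20 and 0.09.

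Seen together, 9 of the 10 differences were above 0, and for the same 9 genes both obese arrays exceeded both lean arrays. Differences were above 0 for 56.9% of all genes. Over all genes 27.5% had both obese arrays above both lean arrays, and 18.5% the opposite. Among the 7555 genes whose higher pool reached the level filter, as it did for 9 of the 10, differences were above 0 for 63.6%. Both obese arrays lay above both lean arrays for 38.5% of the 7555. The median difference of the 10 genes was 0.27, beside 0.03 over all genes and 0.08 over those 7555. The original array of the obese pool moved with this count: 9 of the 10 genes were higher on it than on the technical replicate array of the same pool, as were 76.6% of the 7555 genes. On the original arrays alone the medians were 0.30 for the 10 genes and 0.15 for the 7555, and on the technical replicate arrays alone 0.15 and 0.01. All 10 differences were above 0 on the original arrays and 9 on the technical replicate arrays. The matching shares over all genes were not computed.

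Transcripts of other tissue differed between the pools as well. All 12 measured skeletal muscle markers were called lower in the obese pool, and their summed intensity was 456 and 470 in the obese pool, against 31183 and 32542 in the lean pool. Acta1, the actin of skeletal muscle, measured 6.89 and 6.87 in the obese pool, against 13.08 and 13.12 in the lean pool. Of 5 red cell and platelet markers 2 were lower, with sums of 3376 and 3338 in the obese pool, against 6184 and 6451 in the lean pool. Of 8 stellate cell markers 2 were lower, with sums of 1369 and 1275 in the obese pool, against 1841 and 1841 in the lean pool. These 2 were Dcn at -1.90 and Col1a1 at -0.97, and the rest lay between -0.54 (Col1a2) and 0.11 (Pdgfrb). None of 8 macrophage markers passed the rule, with sums of 3031 and 2537 in the obese pool, against 3282 and 3414 in the lean pool. None of the 7 hepatocyte markers passed either, with sums of 63691 and 64102 in the obese pool, against 57409 and 60108 in the lean pool, and albumin (Alb) differed by 0.08. The 4 measured endothelial markers, with 0 called, had a median difference of -0.19. No measured marker was at 0, although all of the lymphocyte, bile duct and adipocyte markers lay below the level filter. The part of these other tissues in the differences of the 10 genes was not tested, and in bulk RNA fewer cells of a type and less RNA per cell cannot be told apart.

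The antioxidant response element was looked for near the starts of the genes, as its core TGACNNNGC on either strand, in RefSeq windows of assembly GRCr8 from 250 bases before to 50 bases after each annotated start. Of the 10 genes, 9 (all but Gsr) had a window and Txnrd1 had 2. A match was found for 4 genes, beside 12.1% of all 33469 windows. The matched stretches are printed 5′ to 3′ on the strand of the gene, with the core in capitals, because they set the sequence beside the expression differences. In Prdx1 it lay at bases -135 to -127 on the opposite strand, where it reads TGACTCAGC (stretch at chr5:135383746-135383804, plus strand). In Gclm it lay at bases -172 to -164 on the opposite strand, reading TGACTAAGC (chr2:213031938-213031996, plus strand). In the second window of Txnrd1 it lay at bases -78 to -70 on the opposite strand, reading TGACAAAGC (chr7:22755949-22756007, minus strand). In Nfe2l2 it lay within the transcribed part, at bases 39 to 47 on the strand of the gene (chr3:81028950-81028971, minus strand).
Prdx1: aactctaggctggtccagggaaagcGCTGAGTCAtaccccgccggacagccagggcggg
Gclm: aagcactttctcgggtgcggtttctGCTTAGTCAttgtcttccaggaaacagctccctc
Txnrd1: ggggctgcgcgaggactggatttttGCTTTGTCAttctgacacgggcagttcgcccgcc
Nfe2l2: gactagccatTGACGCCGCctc

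Nqo1 and Gclc, the genes with the largest differences, had no match in their windows. The 150 bases before the start of Nqo1 (chr19:52220268-52220417, minus strand) are shown, all in lower case because nothing matched.
Nqo1: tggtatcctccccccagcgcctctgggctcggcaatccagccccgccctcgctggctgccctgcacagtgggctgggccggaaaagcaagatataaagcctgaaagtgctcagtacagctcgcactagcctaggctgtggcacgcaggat
The matches describe the sequence only, and the lack of one says only that these letters are not in the window. Prdx1, Gclm and Txnrd1, which carried the core before their starts, had differences of 0.06, -0.01 and 0.22. Nfe2l2, with the core after its start, differed by 0.40. Keap1, Srxn1 and Gpx1, which like Nqo1 and Gclc had no match, differed by 0.18, 0.09 and 0.32. A relation between the core and the differences was not tested.

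The rest of the pathway was read from 5 lists of 72 genes, of which 67 were measured. The size rule called 5 of them higher and 1 lower in the obese pool, with a median difference of 0.07. Of the 67 genes, 6 lay below the level filter. Among the 7555 genes of the arrays that reached the filter, the rule called 317 higher and 352 lower. The median difference of those 7555 was 0.08, so the median of the 67 genes was about that of the arrays at large. Whether the 67 genes held more calls than other genes was not tested.

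The 13 genes that control Nrf2, among them its ubiquitin ligase, its Maf partners and the competing repressor Bach1, held 0 called in either direction and had a median difference of -0.05, from -0.32 to 0.17. Mafg, a small Maf partner of Nrf2, differed by -0.06, and its arrays overlapped.

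Among 18 other Nrf2 targets 3 were called higher and 0 lower, with a median of 0.07. Gsta3, a glutathione transferase, measured 7.77 and 7.34 in the obese pool, against 6.17 and 5.95 in the lean pool, and was 2.82-fold higher (2.25 to 3.52). It has close relatives in the rat genome, whose transcripts may share its probes. Me1, the malic enzyme that supplies cytosolic NADPH, measured 8.76 and 8.66 in the obese pool, against 7.24 and 7.33 in the lean pool, and was 2.69-fold higher (2.52 to 2.86). Hmox1, which degrades haem, measured 8.24 and 8.14 in the obese pool, against 6.88 and 6.97 in the lean pool, a difference of 1.26. Like Nqo1, these 3 genes had every obese array well above every lean array, while the other 15 targets of the list lay between -0.37 and 0.51.

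Glutathione synthesis and use held 1 gene called higher of 18, with a median of 0.09. This was Gss, glutathione synthetase, which completes what Gclc begins. Gss measured 8.59 and 8.39 in the obese pool, against 7.91 and 7.85 in the lean pool, a 1.53-fold excess (1.40 to 1.67). Its call was narrow: it ended under quantile normalisation, cyclic loess and an offset of 16 on the linear scale, and, among the settings with fewer arrays, on the technical replicate arrays alone and with 3 arrays, when the one left out was the lean technical replicate or the obese original array. On the original arrays alone the call held. Over all 13 alternatives its difference ran between 0.51 and 0.71. Gpx4, the selenoenzyme that reduces lipid hydroperoxides, differed by 0.05, and its arrays overlapped.

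Of 12 other thioredoxin and peroxiredoxin genes 0 were called higher and 1 lower, with a median of 0.02. Txnip, which binds and inhibits thioredoxin, measured 8.99 and 8.96 in the obese pool, against 9.83 and 9.81 in the lean pool. Its level fell by 0.85 on the log2 scale, with array pairs from -0.87 to -0.82. Txn1, thioredoxin itself, differed by 0.07, about as little as Prdx1.

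Scly was the 1 gene called higher among 6 genes of selenium use and selenoprotein synthesis, whose median was 0.09. It encodes the lyase that releases selenium from selenocysteine, and it measured 8.93 and 8.84 in the obese pool, against 8.22 and 8.22 in the lean pool, a 1.59-fold excess (1.53 to 1.64). Under cyclic loess its difference was 0.58 and it was no longer called.

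**Figure D4:**
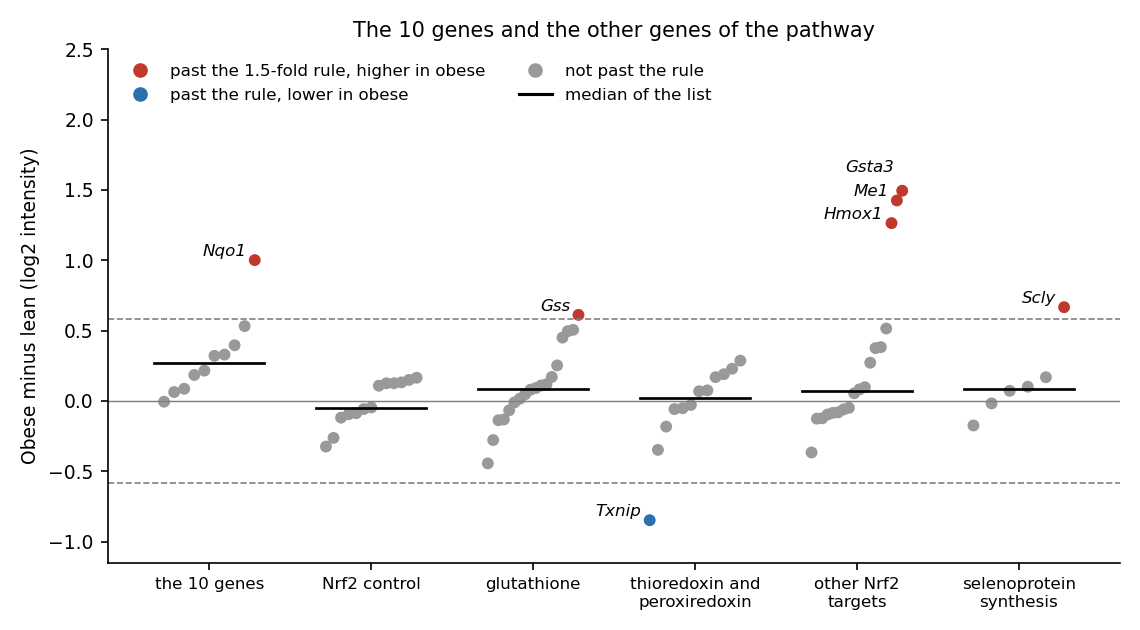
Obese minus lean difference in log2 intensity for the 10 genes and for the 5 other lists of the pathway, 1 point per gene, with a bar at each list's median and dashed lines at a factor of 1.5 in either direction. Called genes are named: Nqo1 at 1.00 among the 10, Gss, Gsta3, Me1, Hmox1 and Scly above the upper line, and Txnip at -0.85 below the lower one.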

How the data were processed

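Liver RNA of the obese and the lean pool was measured on 4 arrays, 2 per pool. The deposited values are linear intensities per probe set that the authors made with RMA (background correction, normalisation between arrays, probe summary), as the submitters' processing notes state. How a linear scale was reached, and the software version and build, are not given in the sources used here. Values were taken to log2. Of 29214 probe sets, 15310 had 1 symbol in the platform annotation, 323 several and 13581 none listed; the probe set with the highest mean was kept per gene (14506 genes). Of the 10 genes, 9 had 1 probe set and Prdx1 had 2. All 11 identifiers kept their symbol in the RefSeq table of GRCr8.

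A difference is the obese minus the lean mean of 2 arrays, with its range over the 4 array pairs, which covers technical error only. The number of arrays limits precision, and detection calls were not used here. The 10 genes are named with every value; from the other lists, up to 4 called genes, and Gss, Txn1, Gpx4, Mafg and Hmox1 whatever their value. Acta1 and Alb are named as markers of muscle and hepatocytes. The stellate cell markers Dcn, Col1a1, Col1a2 and Pdgfrb were named after their values were seen. The members and lists were chosen with earlier results of these data known. The size rule was tested on simulated data that had the spread of the lean arrays only. Over all genes the obese arrays differed more from each other. The standard deviation of the difference between the 2 arrays was 0.27 for the obese and 0.20 for the lean pool. Python 3.11.15 with pandas 2.3.3 and, for normalisation alternatives, limma 3.58.1 in R 4.3.3 were used. Alternatives were 3 other normalisations, an offset of 16, no level filter, no gap, the mean of all probe sets, and leaving out arrays.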

Additional observations from a re-analysis of the deposited data

How the results depend on the processing

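Nqo1 passed the size rule under all 13 alternatives, with differences from 0.82 to 1.18, as did Hmox1, Me1 and Gsta3. Txnip was called lower under all 13. Most of the 13 could not have ended these calls. Dropping the level filter or the gap only loosens the rule, and each of these genes has 1 probe set. The nearest arrays of the pools were at least 0.82 apart for each gene, beyond the 0.585 asked for. Leaving out arrays could therefore not end a call either. Only the 3 other normalisations and the offset could have done so, and under these Nqo1 differed by 0.91 to 1.02. Differences of 8 of the 10 genes, all but Gclm and Prdx1, were above 0 under every alternative run. For these 8 genes both obese arrays exceeded both lean arrays, so leaving out arrays could not turn the sign. The offset keeps the order of the arrays of a gene, so it could not turn the sign either. Only the 3 other normalisations could have done so. Gclm was above 0 in 4 of 13 and Prdx1 in 12 of 13. The count of the 10 genes called higher was 3 on the original arrays alone and between 1 and 2 when 1 array was left out. Their median difference on only the technical replicate arrays was 0.15, and it lay between 0.14 and 0.29 when 1 array was left out. The count of other pathway genes called higher was 3 under cyclic loess and between 4 and 7 when 1 array was left out. The cause of these changes was not tested. Over all genes the rule called 553 higher without the obese technical replicate array and 616 on the original arrays alone, against 317 on all arrays. No paired analysis was possible because each phenotype is 1 pool and no test was run; arrays with the same name in both pools were compared as values only. With no detection calls, how far Srxn1 lies above background cannot be given.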

Other observations

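Several pathway genes were not called although all obese arrays lay above all lean arrays; they were picked after their values were seen. Of the 67 measured genes of the 5 lists, called or not, 29 had this order of the arrays and 18 the opposite one. Over all genes the shares were 27.5% and 18.5%. Among the 7555 genes that reached the level filter the first share was 38.5%. Tkt and Taldo1, enzymes of the pentose phosphate pathway, differed by 0.51 and 0.38, and the glutaredoxin Glrx5, which serves iron-sulfur cluster assembly, by 0.51. Glrx3, another glutaredoxin, differed by 0.45, with 0.62 on the original arrays and 0.28 on the technical replicate arrays. Ggct, which acts in glutathione breakdown, differed by 0.50, and the ferritin light chain Ftl1 by 0.38, with its 6 probe sets between 0.38 and 0.49. In the other direction lay Gstp1 at -0.37 and Prdx2, a peroxiredoxin abundant in red cells, at -0.35. The red cell genes Hbb and Alas2 differed by -0.90 and -1.34 in the same direction; their part in the Prdx2 value was not tested.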
